A study of Mus musculus with 10 samples.

Results

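The transcripts of the extracellular signal-regulated kinase (ERK) cascade and of its immediate early targets were examined in mouse kidney with and without rilmenidine, an imidazoline receptor agonist given for hypertension. Of 43629 genes in the count table, 8 were taken by symbol: 3 kinases, Mapk3, Map2k1 and Map2k2, and 5 activity-induced transcripts, Dusp6, Fos, Jun, Egr1 and Ier2. The kidneys came from male UM-HET3 mice, a genetically heterogeneous stock, aged 4 months. There were 6 control mice on the Purina 5LG6 diet and 4 mice given this food with 10 ppm rilmenidine for 1 month, starting at 3 months of age, and each library was a biological replicate. The study's methods give more control kidneys than were analysed here. The labels name no engineered allele.

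In this cascade, growth factor receptors activate RAS, which recruits RAF kinases. RAF phosphorylates the kinases MEK1 and MEK2, encoded by Map2k1 and Map2k2, and these phosphorylate ERK1, encoded by Mapk3. Active ERK enters the nucleus and acts through serum response factor and its ETS partners on immediate early genes, whose transcripts appear within minutes and decay quickly. The kinases are controlled mainly by phosphorylation, so their transcript levels do not report their activity, whereas the induced transcripts follow recent signaling.

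The 250 bases before the RefSeq start site are given for the 3 induced genes on which the results turn most and for which the RefSeq promoter table held a sequence. They are shown so that the elements near the start of a weakly detected immediate early gene (Fos), a well detected one (Jun) and the ERK phosphatase gene (Dusp6) can be compared. Each was read 5′ to 3′ on the gene's strand in build GRCm38.p6, from chr12:85473640-85473889 (plus strand) for Fos, chr4:95052223-95052472 (minus strand) for Jun and chr10:99262981-99263230 (plus strand) for Dusp6. Capitals mark matches on either strand to the motifs searched.
Fos: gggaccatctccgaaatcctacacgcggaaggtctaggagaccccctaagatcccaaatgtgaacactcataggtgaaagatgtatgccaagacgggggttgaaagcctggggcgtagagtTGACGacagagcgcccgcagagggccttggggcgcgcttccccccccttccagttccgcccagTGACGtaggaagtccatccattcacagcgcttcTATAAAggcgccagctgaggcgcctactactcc
Jun: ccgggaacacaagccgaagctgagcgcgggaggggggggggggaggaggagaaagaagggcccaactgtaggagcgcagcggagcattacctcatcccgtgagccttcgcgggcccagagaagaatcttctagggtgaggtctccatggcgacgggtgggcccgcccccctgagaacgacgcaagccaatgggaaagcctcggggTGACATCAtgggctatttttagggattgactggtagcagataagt
Dusp6: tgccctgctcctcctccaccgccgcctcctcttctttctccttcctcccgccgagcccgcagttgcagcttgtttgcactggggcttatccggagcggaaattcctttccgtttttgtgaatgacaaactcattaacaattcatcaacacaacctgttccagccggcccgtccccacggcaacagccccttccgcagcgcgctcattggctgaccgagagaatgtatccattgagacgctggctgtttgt
The motifs were the CArG box bound by serum response factor, the AP-1 and CREB family elements TGACNTCA, TGACTCA and TGACG, the EGR element GCGTGGGCG, the ETS element CCGGAAGT, and TATAAA. Some TGACNTCA stretches also hold TGACG. In Fos, TGACG lay 129 to 125 and 66 to 62 bases before the start, and TATAAA lay 33 to 28 bases before it. In Jun, TGACNTCA lay 45 to 38 bases before the start. No match was found in this window of Dusp6. Of 32851 RefSeq promoters of the same length, 1.47% held the CArG box, 7.49% TGACNTCA, 4.46% TGACTCA, 17.8% TGACG, 0.536% GCGTGGGCG, 2.88% CCGGAAGT and 12.4% TATAAA. A match is a stretch of letters, and these data do not show whether a factor binds it. Elements more than 250 bases before the start were not searched, so a motif without a match here may lie farther away. Whether the matches are linked to how well a gene was detected was not tested.

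The libraries captured the 3′ ends of polyadenylated RNA, and total counts ranged from 863605 to 2559118 in control kidneys and from 1813465 to 3232063 in rilmenidine kidneys, so depth differed with the group. Levels are given as counts per 1000000 counts of a library (CPM) after relative log expression normalization, and they were compared between kidneys, not between genes. Proximal tubule markers ranged widely. Slc34a1, the sodium-phosphate cotransporter gene, had 5478 to 20224 counts and Lrp2 1035 to 3789, whereas Cubn had 50 to 206 and Slc5a2 only 3 to 20. The hepatocyte markers Alb, Apoa1 and Serpina1c had at most 28 counts. Among the other hepatocyte markers, Apoc3 had 6 to 57 (log2 fold change 0.84, adjusted p 0.337 in edgeR) and Fga 25 to 133. Control libraries 1, 3, 4 and 5 held 1182 to 2100 CPM of the nuclear RNA Malat1, and control libraries 2 and 6 and the rilmenidine libraries held 284 to 398. The summed level of olfactory and vomeronasal receptor genes, which are not kidney genes, reached 10 CPM in 5 control and 2 rilmenidine libraries and stayed below it in the other 3.

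None of the 8 members passed the threshold of an adjusted p-value (Benjamini-Hochberg, edgeR quasi-likelihood test) below 0.05 when rilmenidine was compared with control, and 0% of the 10055 genes tested did, while 1061 of them had an unadjusted p below 0.05. DESeq2 called 60 genes and the likelihood ratio test of edgeR 44, with 0 of the members in either. Fos and Egr1 were too low for this test, which needed 6 reads in at least 7 of the 10 libraries. Among the 6 tested, 1 (Dusp6) was lower at an unadjusted p below 0.05, against 6.13% of all genes, and 0 were higher, against 4.43%. The CPM values of the groups overlapped for each of the 8 members, while they did not overlap for 1.67% of the genes tested.

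**Figure D1:**
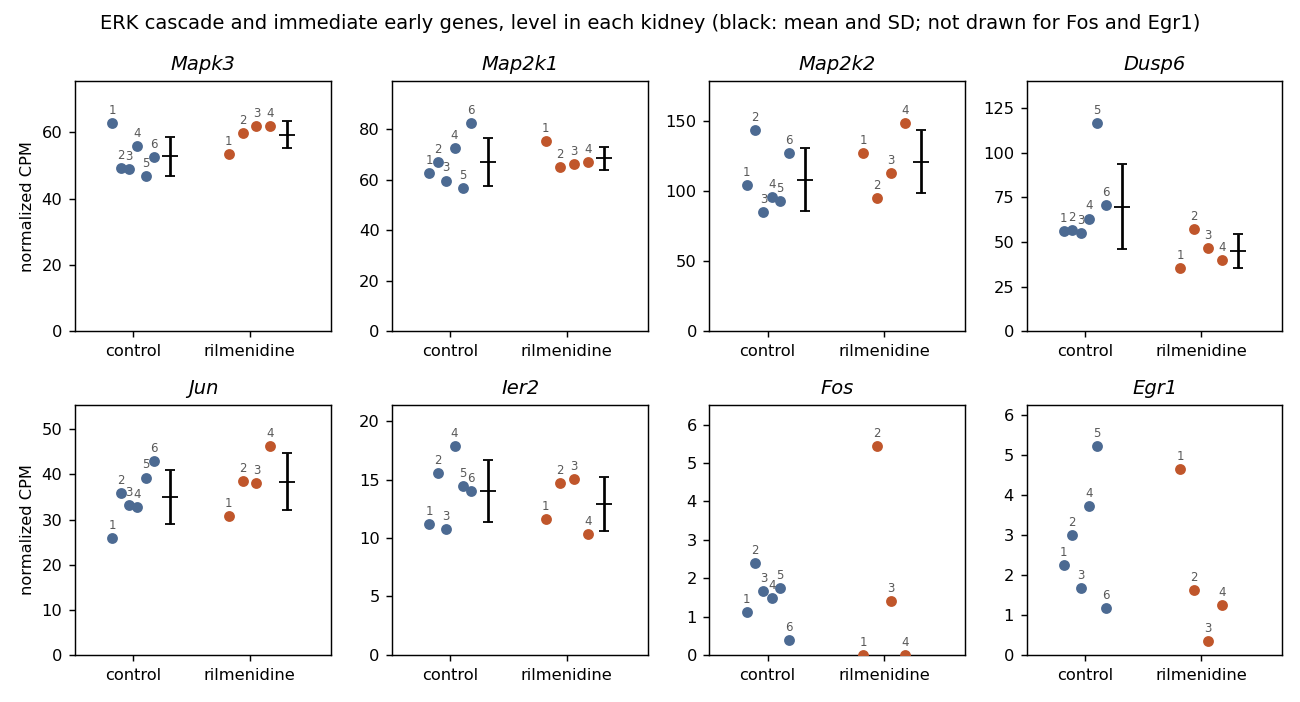
Normalized CPM of each member in each kidney (vertical axes from 0, a separate scale for each gene), with control kidneys in blue, rilmenidine kidneys in orange and replicate numbers above the points. Black marks are mean and SD over 6 control or 4 rilmenidine kidneys and are not drawn for Fos and Egr1. Dusp6 of control kidney 5 stood at 117 CPM, and 3 of 4 rilmenidine kidneys lay below every control kidney.

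Dusp6 encodes a phosphatase that removes the activating phosphates from ERK in the cytoplasm, and its own transcription is raised by ERK signaling. The gene lies on chr10:99263231-99267489 (plus strand, GRCm38). Its level was 56.1, 56.9, 54.8, 63.1, 117 and 70.6 CPM in control kidneys 1 to 6 and 35.4, 57.0, 46.9 and 40.0 CPM in rilmenidine kidneys 1 to 4. Thus 3 of the 4 rilmenidine kidneys were below all controls and the fourth, kidney 2, lay within the control range. The means were 69.7 ± 23.8 CPM (SD, n = 6) and 44.8 ± 9.41 CPM (SD, n = 4). The fitted log2 fold change was -0.65 with a standard error of 0.21 and a 95% interval of -1.10 to -0.20, a change of -36.3% (interval -53.4% to -13.0%). The edgeR test gave an unadjusted p of 0.00765 and an adjusted p of 0.303, so the difference did not pass the threshold over all genes.

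Control kidney 5 stood far above the other controls in Dusp6. Without it the control mean was 60.3 ± 6.58 CPM (SD, n = 5) and the log2 fold change was -0.44 (edgeR, unadjusted p 0.0163, adjusted p 0.614). The ratio of Dusp6 to Mapk3 CPM within a library, which does not depend on scaling to library size, was 0.893 to 2.49 in control kidneys and 0.647 to 0.955 in rilmenidine kidneys. These ranges overlapped through control kidney 1 and rilmenidine kidney 2. In the 7 libraries with at least 10 CPM of the receptor genes, the log2 fold change was -0.60 (edgeR, unadjusted p 0.0697, adjusted p 0.499). Across 19 other ways of fitting, including the loss of any one kidney, the log2 fold change stayed between -0.78 and -0.37. When all 27565 genes with at least 1 count were kept, the adjusted p was 0.0330 and Dusp6 passed, while the other settings gave adjusted p-values from 0.171 to 1.00. With that filter 241 of the 27565 genes passed. The Dusp6 estimate stayed at -0.65, as in the main fit, and its unadjusted p was 0.000255 (edgeR).

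**Figure D2:**
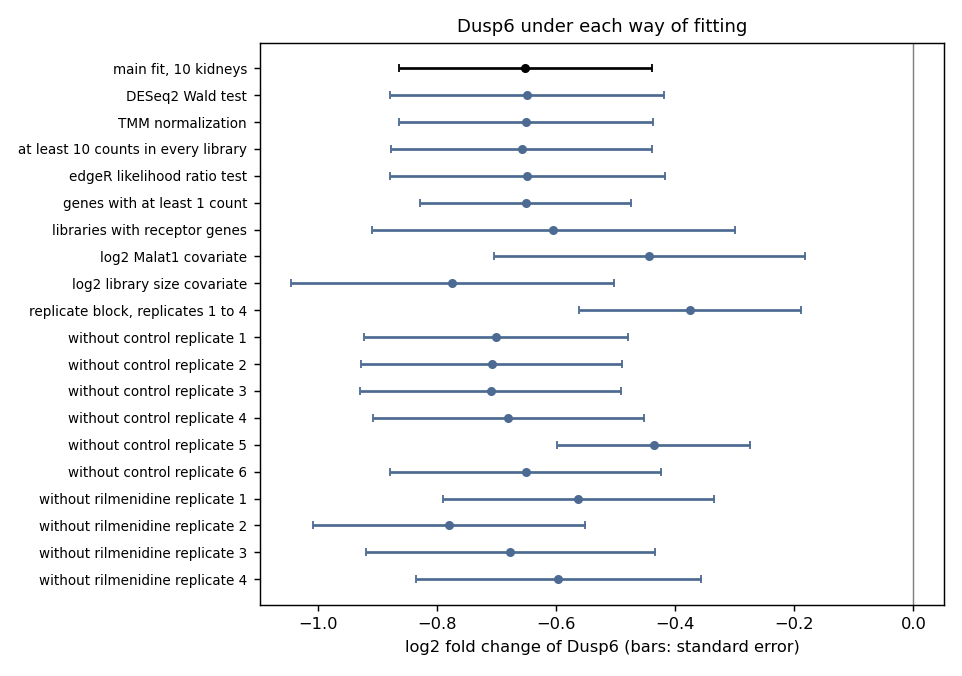
Log2 fold change of Dusp6 (horizontal axis, rilmenidine against control, negative is lower with rilmenidine) under each way of fitting, with bars for the standard error and the fit to 10 kidneys in black. Every estimate lies below 0, between -0.78 without rilmenidine kidney 2 and -0.37 with the replicate block.

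Malat1 was 1482, 398, 1182, 1466, 2100 and 284 CPM in control kidneys 1 to 6. Dusp6 was 56.1, 56.9, 54.8, 63.1, 117 and 70.6 CPM in the same kidneys. In rilmenidine kidneys 1 to 4 Malat1 was 339, 351, 306 and 394 CPM, and Dusp6 was 35.4, 57.0, 46.9 and 40.0 CPM. Malat1 had a log2 fold change of -1.73 (edgeR, unadjusted p 0.000747, adjusted p 0.211). All 4 rilmenidine kidneys were below the control median of Malat1, but control kidneys 2 and 6, at 398 and 284 CPM, were near the rilmenidine values and the groups overlapped. Malat1 was thus partly confounded with the group. With only 2 low controls, a part of Malat1 in the Dusp6 difference cannot be fully told apart from treatment. With log2 Malat1 in the model Dusp6 had a log2 fold change of -0.44 (edgeR, unadjusted p 0.102). The distal convoluted tubule is the nephron segment that takes up salt through the thiazide-sensitive cotransporter. All 4 of its markers had log2 fold changes below 0 (median -0.45), while 5056 of the 10055 genes tested were above 0. Slc12a3, which encodes that cotransporter (-0.55), and Trpm6, a magnesium channel gene (-1.01), had unadjusted p-values of 0.00922 and 0.00683 in edgeR. Thus 2 of 4 were lower at an unadjusted p below 0.05, against 6.13% of all genes, and none passed the adjusted threshold. Trpm6 had only 9 to 29 counts in control and 6 to 18 in rilmenidine kidneys. The 4 tested markers of the thick ascending limb and the 4 of collecting duct principal cells were all above 0. The summed level of the 4 distal convoluted tubule markers was 755 to 1254 CPM in control and 592 to 988 CPM in rilmenidine kidneys. None of these 4 was at 0 in any library. Their part in the Dusp6 difference was not tested. In a whole kidney, fewer cells of a type and less RNA per cell cannot be told apart.

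The 5 genes whose log2 CPM followed Dusp6 most closely over the 10 kidneys were Tcf12 (r = 0.92), Srrm2 (0.90), Crnkl1 (0.90), Kcnj16 (0.89) and Cys1 (0.87). Tcf12 encodes a helix-loop-helix transcription factor, Srrm2 and Crnkl1 encode splicing proteins, Kcnj16 a potassium channel subunit and Cys1 a protein of the primary cilium. After each group was centred on its own mean, r for these 5 was 0.95, 0.82, 0.81, 0.79 and 0.79. They were picked as the highest of all genes tested, from libraries that share depth and Malat1 differences, so the values are a description.

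Jun encodes a subunit of the AP-1 transcription factor and lies on chr4:95049034-95052222 (minus strand). It was 25.8, 36.0, 33.2, 32.7, 39.3 and 42.9 CPM in the control kidneys and 30.7, 38.6, 38.1 and 46.2 CPM in the rilmenidine kidneys. Only rilmenidine kidney 4 was above the control range. The means were 35.0 ± 5.91 CPM (SD, n = 6) and 38.4 ± 6.32 CPM (SD, n = 4), with a log2 fold change of 0.12 (standard error 0.17, 95% interval -0.23 to 0.48, adjusted p 0.853 in edgeR). The estimate was -0.16 with log2 library size as a covariate, so no direction was established.

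Ier2, a short immediate early gene whose product acts in the nucleus, lies on chr8:84661331-84662852 (minus strand). Its level was 11.2, 15.6, 10.8, 17.8, 14.5 and 14.0 CPM in control and 11.6, 14.7, 15.0 and 10.3 CPM in rilmenidine kidneys. The groups overlapped, with 2 rilmenidine kidneys above and 2 below the control median. The log2 fold change was -0.13 (standard error 0.23, 95% interval -0.61 to 0.34, adjusted p 0.890 in edgeR). It had 10 to 43 counts per library.

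Fos, the partner of Jun in AP-1, and Egr1, a zinc-finger transcription factor, are the usual transcripts by which acute ERK signaling is read. Fos lies on chr12:85473890-85477273 (plus strand) and Egr1 on chr18:34859823-34864984 (plus strand). Fos had 1, 4, 2, 2, 3 and 1 counts in control kidneys 1 to 6 and 0, 10, 4 and 0 counts in rilmenidine kidneys 1 to 4. Of the 14 Fos reads with rilmenidine, 10 came from kidney 2. Its library also had the highest summed level of olfactory and vomeronasal receptor genes, 387 CPM, and the most genes detected, 22848. Whether these are linked was not tested. Summed over libraries and without normalization, Fos was 1.39 CPM in control kidneys (exact Poisson 95% interval 0.738 to 2.37). In rilmenidine kidneys it was 1.40 CPM (0.765 to 2.35), a ratio of 1.01 (0.440 to 2.33). The two-sided exact permutation test of log2(CPM + 1) over all 210 divisions of the kidneys gave p = 0.610, where the smallest p possible is 0.00476.

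Egr1 had 2, 5, 2, 5, 9 and 3 counts in control and 8, 3, 1 and 4 counts in rilmenidine kidneys. The lowest count was in rilmenidine kidney 3 and the highest in control kidney 5, and the groups overlapped. The sums gave 2.77 CPM (1.81 to 4.06) and 1.60 CPM (0.913 to 2.60), a rilmenidine to control ratio of 0.576 (0.289 to 1.12), and the exact permutation p was 0.314. These intervals cover counting error only. They leave out the spread between kidneys, so they do not give the size of difference that could be detected at this depth.

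The kinase genes were detected in every library, with at least 56 counts. Mapk3, encoding ERK1 on chr7:126759601-126765819 (plus strand), was 62.9, 49.1, 49.0, 55.7, 46.9 and 52.6 CPM in control and 53.4, 59.7, 61.9 and 61.8 CPM in rilmenidine kidneys. All 4 rilmenidine kidneys were above the control median, but control kidney 1 was the highest of all. The means were 52.7 ± 5.88 CPM (SD, n = 6) and 59.2 ± 4.03 CPM (SD, n = 4). The log2 fold change was 0.18 (standard error 0.13, 95% interval -0.10 to 0.46, adjusted p 0.667 in edgeR), and it stayed between 0.11 and 0.23 in the 19 other fits. The biological coefficient of variation of Mapk3, the fitted spread between animals, was 0.132 and smaller than that of all but 0.826% of the genes tested.

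Map2k1, encoding MEK1 on chr9:64185770-64253631 (minus strand), was 62.9, 67.1, 59.8, 72.8, 56.7 and 82.7 CPM in control and 75.4, 65.2, 66.5 and 67.1 CPM in rilmenidine kidneys. The rilmenidine kidneys lay inside the control range. The log2 fold change was 0.02 (standard error 0.14, 95% interval -0.27 to 0.32, adjusted p 0.975 in edgeR), an interval that spans changes from -16.8% to 24.4%. Its sign was not fixed, at -0.14 with log2 Malat1 and -0.06 with log2 library size as covariates.

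Map2k2, encoding MEK2 on chr10:81105915-81133975 (plus strand), was 104, 143, 84.7, 95.8, 93.1 and 127 CPM in control and 127, 95.0, 113 and 149 CPM in rilmenidine kidneys. Both groups spread widely and overlapped, with rilmenidine kidney 4 just above the highest control. The log2 fold change was 0.16 (standard error 0.17, 95% interval -0.19 to 0.51, adjusted p 0.783 in edgeR). With log2 Malat1 or log2 library size as a covariate it was -0.09 or -0.06.

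**Figure D3:**
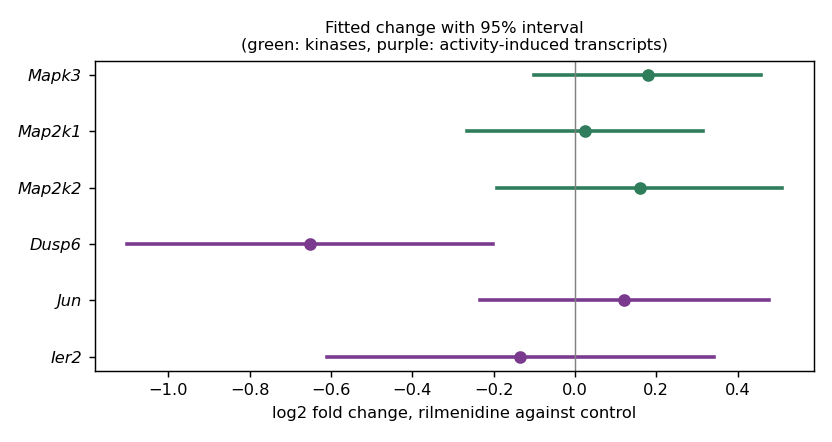
Fitted log2 fold change (points) and 95% interval (lines) of the 6 members tested, rilmenidine against control, with kinases in green and activity-induced transcripts in purple. The interval of Dusp6, -1.10 to -0.20, lies below 0, and those of the other 5 include 0.

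When the kinases were set against the induced transcripts, the median log2 fold change was 0.16 for the 3 kinases and -0.13 for Dusp6, Jun and Ier2. The difference of these medians was 0.29. The mean log2 CPM of the kinases was 6.19 ± 0.16 in control (SD, n = 6) and 6.31 ± 0.10 in rilmenidine kidneys (SD, n = 4). The corresponding means of the 3 induced transcripts were 5.05 ± 0.24 and 4.86 ± 0.19.

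Within a kidney, the kinase mean minus the induced mean was 1.50, 1.26, 1.18, 1.10, 0.61 and 1.20 in control kidneys 1 to 6. In rilmenidine kidneys 1 to 4 it was 1.73, 1.14, 1.34 and 1.62. The lowest value was that of control kidney 5, where Dusp6 was highest, and the groups overlapped, at 1.14 ± 0.30 (SD, n = 6) and 1.46 ± 0.27 (SD, n = 4). The 0.29 difference of the medians ranged from 0.07 (without rilmenidine kidney 4) to 0.38 (without rilmenidine kidney 3) over 19 other fits. It was 0.19 without control kidney 4, 0.10 with log2 Malat1 and 0.14 with log2 library size in the model.

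**Figure D4:**
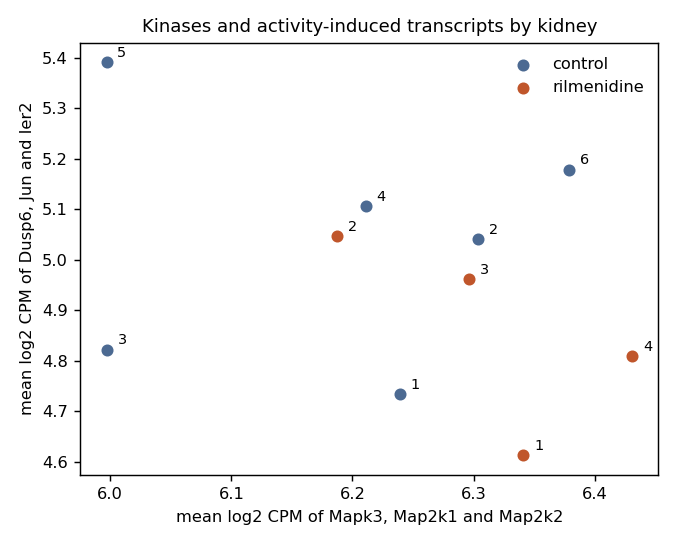
Mean log2 CPM of Mapk3, Map2k1 and Map2k2 (horizontal) against that of Dusp6, Jun and Ier2 (vertical) in each kidney, with control in blue, rilmenidine in orange and replicate numbers beside the points. Control kidney 5 combines the highest induced mean, 5.39, with one of the lowest kinase means, 6.00.

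No pair of members was shown to vary together over the 10 kidneys. The kidneys of both groups were pooled for this, and so few kidneys can miss a correlation of moderate size. Of 15 pairs among the 6 tested members, 0 had an adjusted p below 0.05 for Pearson's r or Spearman's rho (permutation tests over 10 kidneys, Benjamini-Hochberg over the 15 pairs). The pair of MEK genes, Map2k1 and Map2k2, had r = 0.52 (permutation p 0.124, adjusted 0.728) and rho = 0.70 (permutation p 0.0313, adjusted 0.469), and r was 0.41 without the 2 kidneys farthest from the median of Map2k1. Mapk3 and Dusp6 had r = -0.53 (permutation p 0.109, adjusted 0.728) and rho = -0.43 (permutation p 0.218, adjusted 0.864), with r = -0.33 without the 2 farthest kidneys. With each group centred on its own mean, r was -0.25 for Mapk3 and Dusp6 and 0.51 for Map2k1 and Map2k2. Fos and Egr1 were too low to be included.

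The genes that followed Mapk3 most closely in log2 CPM over the 10 kidneys were Rnf19b (r = 0.91), Cyp4a10 (0.87), Gpc3 (0.87), Tmed7 (0.87) and Aass (0.87). Rnf19b encodes a ubiquitin ligase, Cyp4a10 a fatty acid hydroxylase, Gpc3 a glypican, Tmed7 a protein of vesicle transport and Aass an enzyme of lysine degradation. None of these is a gene of the cascade as listed here.

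Among 38 listed genes upstream of ERK, 35 were tested, 1 was higher and 3 were lower at an unadjusted p below 0.05 (4.43% and 6.13% of all genes), and the median log2 fold change was 0.01 against 0.00 for all genes. None passed the adjusted threshold, although Lamtor3 did when genes with at least 1 count were kept. Hras, a RAS gene, was 32.6 ± 6.26 CPM in control (SD, n = 6) and 44.3 ± 6.94 CPM in rilmenidine kidneys (SD, n = 4), a log2 fold change of 0.43 (edgeR, adjusted p 0.374). Frs2, an adaptor of the fibroblast growth factor receptors, was 25.9 ± 5.81 and 18.8 ± 4.91 CPM (-0.49, edgeR, adjusted p 0.442), and the other lower genes were Rasa1, which switches RAS off (-0.41), and Lamtor3, a MEK scaffold (-1.77). Lamtor3 spread from 1.20 to 43.1 CPM in control and reached 21.2 CPM in rilmenidine kidneys, and the groups overlapped. Araf and Braf, which encode RAF kinases, had log2 fold changes of -0.22 and -0.21.

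Of 20 feedback genes, which like Dusp6 dampen the cascade, 19 were found in the counts and 12 were tested. At an unadjusted p below 0.05, 0 were higher and 0 lower (4.43% and 6.13% of all genes), with a median of -0.09. The transcript with the smallest p was Errfi1, an inhibitor of the EGF receptor, at 212 ± 22.2 CPM in control and 180 ± 11.6 CPM in rilmenidine kidneys (-0.24, edgeR, adjusted p 0.499). Dusp7, a close relative of Dusp6, had a log2 fold change of 0.10, Spry1, Spry2 and Spry4 had -0.07, -0.14 and 0.15, and the nuclear phosphatase gene Dusp1 had -0.15. Of 19 substrates and nuclear effectors, 16 were tested, and 0 were higher and 0 lower at this p (4.43% and 6.13% of all genes, median -0.09). The extremes by p were Etv1, an ETS factor (-0.31, edgeR, adjusted p 0.577), and Rps6ka1, encoding the kinase RSK1 (0.28, adjusted p 0.760). Srf, encoding serum response factor, had -0.28.

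Of 46 other immediate early genes, 29 were tested, with 3 higher and 2 lower at an unadjusted p below 0.05 (4.43% and 6.13% of all genes) and a median of -0.14. None passed the adjusted threshold. Ier3, which is induced by stress and growth factors, was 40.4, 62.3, 34.0, 39.4, 34.7 and 37.0 CPM in control kidneys and 85.2, 61.4, 60.5 and 59.0 CPM in rilmenidine kidneys. Control kidney 2 was the single control inside the rilmenidine range. Its log2 fold change was 0.68 (standard error 0.18; edgeR, unadjusted p 0.00165, adjusted p 0.232). Ier3 passed the adjusted threshold without control kidney 2 and when genes with at least 1 count were kept. Btg1, a growth inhibitor gene (0.98), and Nfkbia, encoding an inhibitor of NF-kappaB (0.40), were the other higher genes. Zfp36l2, encoding an RNA-binding protein, was 5.79 ± 1.81 and 2.65 ± 0.35 CPM (-1.05, edgeR, adjusted p 0.321), and Sgk1, an aldosterone-regulated kinase gene, had -0.44.

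Several AP-1 and EGR relatives of the members were as low as Fos and Egr1. Of the 17 immediate early genes that were not tested, Fosl1, Egr3 and Egr4 had 0 counts in every library, Fosb had 0 to 5 and Egr2 0 to 7 counts. The steadily expressed relative of Jun, Jund, was 175 ± 26.0 and 193 ± 8.95 CPM (0.14), and Junb was 4.09 ± 2.43 and 4.65 ± 0.78 CPM (0.21).

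For comparison, 14 of 18 genes of the stress-activated kinase cascades were tested, with 0 higher and 2 lower at an unadjusted p below 0.05 (4.43% and 6.13% of all genes) and a median of -0.20. The lower genes were Map3k5 (-0.53) and Map2k7 (-0.58), both kinases that act above JNK. Map3k5 had the smallest p (edgeR, adjusted p 0.397), and Mapkapk3, a kinase below p38, had the smallest p of those above 0 (0.18, adjusted p 0.904). All 10 heat shock genes were tested, with 0 higher and 1 lower at this p and a median of -0.10. Hspa1a, the inducible HSP70 gene, was 13.8 ± 5.81 and 5.98 ± 1.11 CPM (-1.22, edgeR, adjusted p 0.232) and passed when genes with at least 1 count were kept, and the mitochondrial chaperonin gene Hspe1 had 0.35 (adjusted p 0.635).

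**Figure D5:**
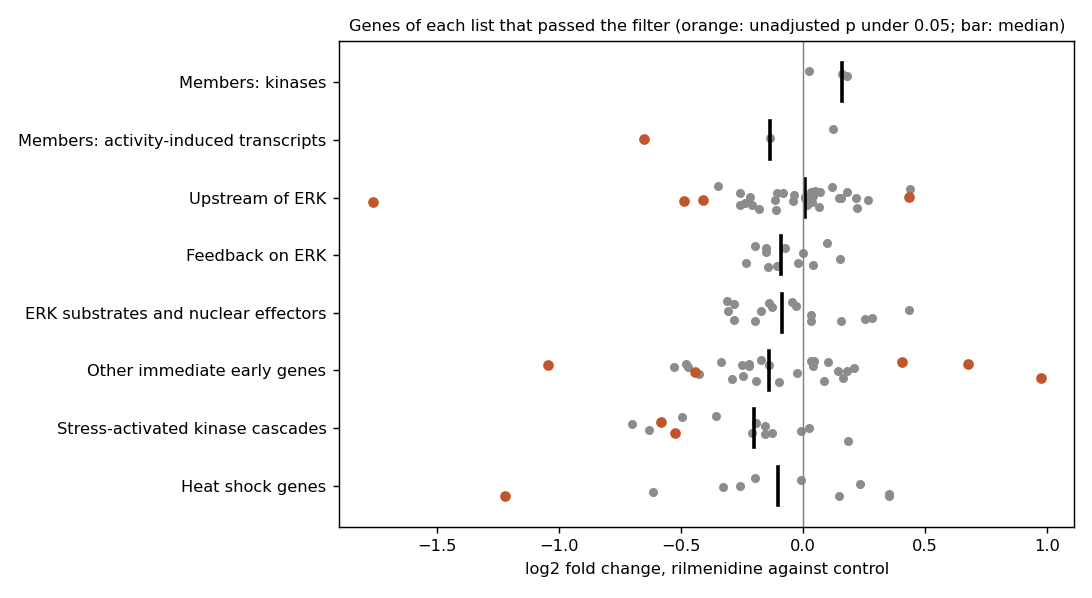
Log2 fold change (horizontal axis, rilmenidine against control) of every gene that passed the filter in each list, with the list median as a black bar and genes at an unadjusted p below 0.05 in orange. No gene shown passed the adjusted threshold, and the list medians lie between -0.20 and 0.16.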

How the data were processed

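Kidney libraries of 6 control and 4 rilmenidine-treated mice were grouped by their labels. The authors deposited raw counts of reads per Ensembl gene; bcl2fastq 1.8.4, Trimmomatic 0.32, STAR 2.5.2b, featureCounts 1.5 and build mm10 are named in the submitters' processing notes. The strand setting and the handling of molecular identifiers are not given in the sources used here, so reads of overlapping or antisense genes may be counted together and duplicates may remain. The extraction note of the kidney samples names liver, and the tissue label, kidney, was used. Of 43629 identifiers, 42462 were matched to GENCODE M21 (GRCm38) symbols.

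A gene was kept when 7 or more of the 10 libraries had 6 reads or more of it. Kept genes were normalized by relative log expression (RLE) and tested with the quasi-likelihood test of edgeR 4.0.16 in R 4.3.3, without covariates. P-values were adjusted by Benjamini-Hochberg over all genes tested, at a threshold of 0.05. Standard errors come from the fitted weights. For logarithms a prior count of 2 was used in CPM, and a pseudocount of 1 in the exact permutation tests of Fos and Egr1. Correlations used 100000 permutations. Alternatives were TMM normalization, other filters, DESeq2 1.42.0, the edgeR likelihood ratio test, covariates, a replicate block, a restriction to the 7 libraries with at least 10 CPM of olfactory and vomeronasal receptor genes and leaving out each kidney. The code was tested on simulated data. Total counts of 863605 to 3232063 limit low genes.

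The members and lists were chosen with earlier results of these data known. Named genes are the members, the gene with the smallest p in each direction of each list, the 5 genes most correlated with Dusp6 and with Mapk3, and Malat1. Other genes were named after their values were seen. Some genes of the lists are not reported here.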

Additional observations from a re-analysis of the deposited data

Results flagged for a closer look

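Dusp6 in control kidney 5 was 117 CPM, while the other 5 control kidneys ranged from 54.8 to 70.6 CPM. Its gap to the nearest kidney was 0.745 of the range of the group, above the limit of Dixon's test for 6 samples. Among 22 groups of values examined this way, 1 stood out, where chance flags about 1 in 20 groups. The same kidney had the highest Malat1 level, 2100 CPM, and the highest Egr1 count, 9. Whether these are linked was not tested.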

How the results depend on the processing

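Among all genes, 0 passed the adjusted threshold in the edgeR quasi-likelihood test and 1061 had an unadjusted p below 0.05, whereas 60 passed in DESeq2, 44 in the edgeR likelihood ratio test and 241 when all genes with at least 1 count were kept. Leaving out 1 kidney gave 0 to 37 genes, with 33 without control 2, 37 without control 6 and 6 without rilmenidine 1. Of the members, 1 (Dusp6) passed when genes with at least 1 count were kept and 0 in the other settings. Of the listed genes, Ier3, Lamtor3 and Hspa1a also passed with that filter, and Ier3 passed without control 2. The number of members at an unadjusted p below 0.05 was 0 instead of 1 in the 7 libraries with olfactory and vomeronasal receptor reads (Dusp6 p 0.0697), with the Malat1 covariate and with the replicate block. Estimates changed sign for Jun with library size as a covariate (-0.16), for Map2k1 with Malat1 (-0.14) or library size (-0.0615), and for Map2k2 with Malat1 (-0.0917) or library size (-0.0562). For Map2k1 the estimate ranged from -0.0225 to 0.101 when 1 kidney was left out, and it was below 0 without control 3 (-0.0046), control 5 (-0.0199) or rilmenidine 1. None of these estimates passed the test, and the causes were not tested.

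The fit with the replicate block used only kidneys 1 to 4 of each group. It left out control kidneys 5 and 6, the controls with the highest Dusp6 (117 and 70.6 CPM). In this fit Dusp6 had a log2 fold change of -0.37 (edgeR, unadjusted p 0.0636, adjusted p 0.572). Blocking and the loss of these kidneys were not separated. Kidneys with the same number deviated from their group means with correlations of 0.0762, 0.0775, -0.0768 and -0.0070, so the numbers were not shown to pair the mice. Low counts limit Fos, Egr1 and Ier2.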

Other observations

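Some immediate early genes were too low to be tested, and 2 were picked out here after their values were seen. Nr4a1, encoding an orphan nuclear receptor, had 0 to 2 counts in control kidneys and 3 to 6 counts in rilmenidine kidneys. Its CPM did not overlap either, at 0 to 0.83 in control and 1.05 to 1.87 in rilmenidine kidneys. The groups did not overlap for 1.67% of the genes tested, and no such share was taken for genes this low. Csrnp1, a nuclear protein gene, had 1 to 4 and 4 to 15 counts, and its CPM overlapped, at 0.578 to 4.49 and 1.25 to 5.25. Neither gene was tested.

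Among other tubule segments, Umod (0.61) and Egf (0.42), genes of the thick ascending limb, were higher at an unadjusted p below 0.05 in edgeR. So were the water channel genes Aqp2 (0.58) and Aqp3 (0.34) of collecting duct principal cells, and none passed the adjusted threshold. In each list 2 of 4 tested markers were higher at this p and 0 lower (4.43% and 6.13% of all genes). The others were Slc12a1 (0.08) and Kcnj1 (0.07) of the limb, and Scnn1g (0.11) and Hsd11b2 (0.06) of principal cells. The 8 endothelial and 8 immune markers were all tested, and 0 of either list were higher or lower at this p.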
